A study of Mus musculus with 4 samples.

Results

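The data describe 8 scavenger receptor genes, Cd36, Msr1, Scarb1, Olr1, Lrp1, Stab1, Colec12 and Mrc1, in mouse liver. They were chosen by name as receptors for modified lipoproteins, and all 8 were found among the 24346 gene symbols listed in every library. Liver mRNA was sequenced from male C57BL/6 mice that ate, for 3 weeks, a diet rich in fat, cholesterol and sucrose with cholate (NASH diet), which induces steatohepatitis. The diet of the 7KC group (n = 2) also held 7-ketocholesterol (7KC), a cholesterol oxidation product, and that of the control group (n = 2) did not. Neither group was on a normal diet, so levels are given for steatohepatitic liver in both, and nothing in the labels says whether the 2 libraries of a group came from separate animals. If they did not, the p-values measure technical spread.

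Scavenger receptors are membrane proteins that bind and take up oxidized or acetylated lipoproteins and other altered ligands. They are grouped by structure and not by descent. Several of them are not shut down when a cell fills with cholesterol, so a macrophage that takes up oxidized LDL through them can turn into a foam cell. 7KC is one of the main oxysterols in oxidized LDL. In the liver this uptake is shared between hepatocytes, Kupffer cells (the resident macrophages) and the endothelial cells that line the sinusoids.

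The upstream sequences of 3 of the genes are shown first. Olr1 is shown because the libraries of its groups did not overlap, and Mrc1 and Stab1 because, across the 4 libraries, each had the profile nearest to that of the other among the receptors. The sequences are from RefSeq (GRCm38.p6), which matched 5 of the 8 genes, Cd36, Olr1, Lrp1, Stab1 and Mrc1. Each is read 5′ to 3′ on the strand of the gene and ends at the start of the transcript or, for Mrc1, before the annotated exon. The Olr1 sequence is chr6:129507166-129507415 on the minus strand, that of Stab1 is chr14:31168642-31168891 on the minus strand and that of Mrc1 is chr2:14229164-14229391 on the plus strand. Capitals mark matches on either strand to the PU.1 core GAGGAA, the AP-1 site TGANTCA, the GATA site AGATAA or the nuclear receptor core AGGTCA.
Olr1: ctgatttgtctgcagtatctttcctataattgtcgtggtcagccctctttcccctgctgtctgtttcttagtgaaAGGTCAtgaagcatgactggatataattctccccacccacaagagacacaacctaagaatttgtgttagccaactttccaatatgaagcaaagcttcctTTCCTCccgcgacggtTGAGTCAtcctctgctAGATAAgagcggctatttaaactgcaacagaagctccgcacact
Stab1: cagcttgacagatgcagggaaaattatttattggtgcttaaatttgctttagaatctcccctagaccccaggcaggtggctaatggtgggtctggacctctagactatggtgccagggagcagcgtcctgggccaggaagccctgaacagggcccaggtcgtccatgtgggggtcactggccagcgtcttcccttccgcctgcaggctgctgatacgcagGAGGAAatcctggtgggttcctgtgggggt
Mrc1: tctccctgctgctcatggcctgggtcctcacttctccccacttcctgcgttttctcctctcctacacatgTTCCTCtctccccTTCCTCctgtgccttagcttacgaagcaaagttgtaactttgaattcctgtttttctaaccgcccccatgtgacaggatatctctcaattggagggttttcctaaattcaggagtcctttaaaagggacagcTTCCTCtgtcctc

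Olr1 held 1 match to each of the 4 motifs, Stab1 held 1 match to the PU.1 core and Mrc1 held 3, and no matches overlapped. Of 32851 upstream sequences of 250 bases, 23.3% held the PU.1 core, 6.75% the AP-1 site, 9.99% the GATA site and 14% the nuclear receptor core. These letters describe the windows and say nothing of factors bound there.

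FPKM, the unit of the deposited values, is scaled by gene length and by library size, so levels can be compared between genes. How library size was measured was not settled, since the study and the submitters' notes name different tools. The depth estimated from the spacing of low values was 13650000 to 16950000 reads per library, and the depth of 7KC replicate 2 was the same as that of 7KC replicate 1. This depth is a scale of the values and may differ from the number of mapped reads. The highest levels were those of the genes that hepatocytes are known to express. Scarb1 was at 149 to 174 FPKM and Lrp1 at 64.1 to 70.7 FPKM. Scarb1 alone made up 46.1% of the summed FPKM of the 8 genes in 7KC replicate 2 and 55.0% to 56.2% in the others. Cd36 followed at 21.4 to 38.2 FPKM. Next came Colec12 at 15.6 to 20.7 FPKM, Mrc1 at 9.21 to 17.2 FPKM, Msr1 at 5.76 to 15.7 FPKM and Stab1 at 7.10 to 13.0 FPKM. Olr1 was at 0.0526 to 0.606 FPKM.

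The ranges of Scarb1, Lrp1, Cd36 and Colec12 did not overlap between neighbours in this order, nor did those of Stab1 and Olr1. The ranges of Colec12 and Mrc1 overlapped, as did those of Mrc1 and Msr1, although in all 4 libraries the first of each pair was the higher. Msr1 and Stab1 could not be ordered, since Msr1 was above Stab1 in 3 libraries and below it in control replicate 1.

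**Figure D1:**
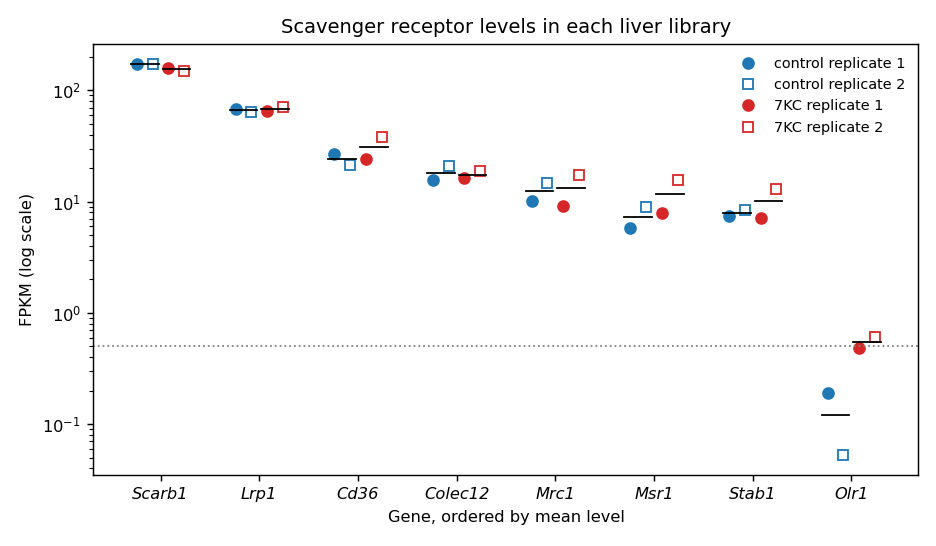
The plot shows the level of each receptor gene (FPKM, log axis) in each of the 4 libraries, with control libraries in blue, 7KC libraries in red, replicate 1 as filled circles and replicate 2 as open squares. Black lines are group means (n = 2) and the dotted line is the filter of 0.5 FPKM. Both 7KC libraries lie above both control libraries for Olr1 and, on the deposited scale though not with equal sums of FPKM, below them for Scarb1, and for the other 6 genes the groups overlap.

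The comparison of the groups asked whether the levels of these receptors differed with 7KC in the NASH diet. None of the 7 tested genes passed an adjusted p under 0.05 in limma on log2(FPKM + 0.5), where 0.504% of 12299 tested genes passed (0.48% higher and 0.0244% lower), and none had an unadjusted p under 0.05, where 17.8% of tested genes had. Olr1 was under the filter of a mean of 0.5 FPKM and was not tested. Of the 7 tested genes 1, Scarb1, was lower in both 7KC libraries than in both control libraries, and 0 were higher in both. Among all tested genes 27.4% were lower in this way and 25.1% were higher, 52.5% in all. The median log2 change of the 7 genes was 0.05 and that of all tested genes -0.03.

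Scarb1 (ENSMUSG00000037936.15, mm10 chromosome 5, 125277087 to 125341094, minus strand) encodes the class B receptor SR-BI, through which the liver takes cholesteryl esters from HDL. It was at 171 and 174 FPKM in control replicates 1 and 2 and at 158 and 149 FPKM in 7KC replicates 1 and 2. Both 7KC libraries were lower, and the groups did not overlap. The means were 173 ± 1.84 FPKM in the control group and 154 ± 6.52 FPKM in the 7KC group (SD, n = 2), a fall of 10.9% in the mean. On the log2 scale the change was -0.17 (SE 0.11, 95% interval -0.45 to 0.12, limma adjusted p 0.486). When every library was rescaled to the same sum of FPKM, the median of all genes moved to 0.16 and Scarb1 was at 0.04 with overlapping libraries, and relative to that median it was at -0.12. Under quantile normalization it was at -0.01 and its libraries overlapped.

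Pdzk1, the adaptor that holds SR-BI at the hepatocyte surface, was at 20.4 and 24.6 FPKM in the control group, against 16.9 and 15.2 FPKM with 7KC. Its libraries did not overlap either, a change of -0.47 on the log2 scale (SE 0.14, limma adjusted p 0.189). Of the 9 genes of the hepatocyte marker list 0 passed the threshold, and 7 were lower in both 7KC libraries, beside 27.4% of all tested genes, with summed levels of 72884 and 59933 FPKM in the control group, against 52053 and 38670 FPKM with 7KC. Under quantile normalization 3 of the 9 were lower without overlap, beside 34.3% of all tested genes. The median log2 change of the 9 was then -0.21 in place of -0.52. With equal sums of FPKM 6 of the 9 were lower without overlap, beside 7.86% of all tested genes, and their median was -0.31. The part of the markers in the Scarb1 values was not tested. Relative to the mean log2 level of the hepatocyte markers, 5 of the 7 tested receptors, Scarb1 among them, were higher in both 7KC libraries, as were 81.6% of all tested genes, and 0 were lower, as were 0.333%.

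Cd36 (ENSMUSG00000002944.15, mm10 chromosome 5, 17781690 to 17888801, minus strand), the other class B member, is a fatty acid translocase that also binds oxidized LDL. It was at 26.8 and 21.4 FPKM in control replicates 1 and 2 and at 24.3 and 38.2 FPKM in 7KC replicates 1 and 2. 7KC replicate 2 stood above the others, and 7KC replicate 1 fell between the control libraries. The means were 24.1 ± 3.86 and 31.3 ± 9.83 FPKM (SD, n = 2), and the log2 change was 0.34 (SE 0.24, 95% interval -0.27 to 0.96, limma adjusted p 0.502). Leaving out 7KC replicate 2 gave 0.02, leaving out control replicate 2 gave 0.18 and leaving out 7KC replicate 1 gave 0.66. When the libraries were rescaled to the same sum, the Cd36 libraries no longer overlapped, with a log2 change of 0.54 and 0.39 relative to the median of all genes (adjusted p 0.334). On that scale 2 of the 7 receptors, Cd36 and Lrp1, were higher without overlap and 0 were lower, beside 46.5% and 7.86% of all tested genes, and 0 of 7 passed the threshold, beside 3.29%. None of the 7 had an unadjusted p under 0.05 on that scale.

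Lrp1 (ENSMUSG00000040249.15, mm10 chromosome 10, 127538161 to 127621148, minus strand) encodes a large endocytic receptor that clears remnant lipoproteins in the liver. Its values were 67.7 and 64.1 FPKM in the control group, against 64.6 and 70.7 FPKM with 7KC. The groups overlapped, with means of 65.9 ± 2.50 and 67.6 ± 4.31 FPKM (SD, n = 2). The log2 change was 0.04 (SE 0.11, 95% interval -0.25 to 0.32, limma adjusted p 0.896), so the interval reached from 0.84-fold to 1.25-fold. It was -0.03 without 7KC replicate 2 and -0.002 without control replicate 2. Rescaled to the same sum, Lrp1 was at 0.24 with libraries that did not overlap, and 0.08 relative to the median of all genes.

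Msr1 (ENSMUSG00000025044.16, mm10 chromosome 8, 39581685 to 39642673, minus strand) encodes the class A macrophage receptor for acetylated and oxidized LDL. It was at 5.76 and 8.86 FPKM in control replicates 1 and 2 and at 7.86 and 15.7 FPKM in 7KC replicates 1 and 2. 7KC replicate 2 was the highest, and 7KC replicate 1 was below control replicate 2. The means were 7.31 ± 2.19 and 11.8 ± 5.52 FPKM (SD, n = 2). Among the 7 tested receptors this was the largest log2 change, 0.60 (SE 0.36, 95% interval -0.31 to 1.51, limma adjusted p 0.432). The interval held both a fall to 0.81-fold and a rise to 2.86-fold. Leaving out 7KC replicate 2 or control replicate 1 lowered it to 0.13 or 0.31, and leaving out control replicate 2 or 7KC replicate 1 raised it to 0.89 or 1.08.

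The 2 tested genes closest to Msr1 across the 4 libraries were the macrophage surface genes Adgre1 and Siglec1, with root mean square distances of 0.07 and 0.08 on the log2 scale. The distance was taken between profiles centred on their own means. Adgre1 was at 9.93 and 14.5 FPKM in the control group, against 14.3 and 28.6 FPKM with 7KC, and is also a gene of the Kupffer cell list. Of the 10 genes of that list 0 passed the threshold and 7 were higher in both 7KC libraries, beside 25.1% of all tested genes, and its summed level was 842 and 801 FPKM in the control group, against 1133 and 1649 FPKM with 7KC. Not all of the list went this way. Vsig4, a complement receptor of resident Kupffer cells, was at 40.1 and 43.0 FPKM in the control group and lower in both 7KC libraries, at 25.4 and 38.4 FPKM, and Clec4f, a Kupffer cell lectin, was at 52.7 and 62.3 FPKM against 48.1 and 65.1 FPKM. With equal sums of FPKM 2 of the 10 genes passed and 8 were higher without overlap, beside 3.29% and 46.5% of all tested genes. Of the 11 genes of the list for monocytes and recruited macrophages 0 passed and 7 were higher in both, beside 25.1% of all tested genes. The summed levels of this list were 205 and 122 FPKM in the control group and 355 and 635 FPKM in the 7KC group. Without control replicate 1, 11 of these 11 were higher without overlap, beside 37.6% of all genes tested then. With equal sums 2 passed and 10 were higher, beside 3.29% and 46.5% of all tested genes. Ly6c2, a surface marker of inflammatory monocytes, had the smallest p of the list, at 11.1 and 5.39 FPKM against 44.2 and 42.2 FPKM (limma adjusted p 0.0523). The most abundant were C1qb at 164 to 371 FPKM and Spp1 at 54.1 to 363 FPKM, and none of the genes of these lists was listed at 0 in every library. In whole liver a change in the number of such cells and a change in their RNA per cell cannot be told apart, and the part of the markers in the Msr1 values was not tested. Relative to the mean log2 level of the Kupffer cell list Msr1 differed by -0.01 between the groups, with overlapping libraries.

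Colec12 (ENSMUSG00000036103.9, mm10 chromosome 18, 9707595 to 9882644, plus strand), a collectin with a collagen-like stalk like that of Msr1, is known from endothelial cells. It was at 15.6 and 20.7 FPKM in the control group, against 16.2 and 18.8 FPKM with 7KC. Both 7KC values lay between the control values, and the means were 18.1 ± 3.58 and 17.5 ± 1.83 FPKM (SD, n = 2). The log2 change was -0.04 (SE 0.17, 95% interval -0.47 to 0.39, limma adjusted p 0.922). Leaving out control replicate 2 or 7KC replicate 1 turned it to 0.16 or 0.06, and leaving out control replicate 1 or 7KC replicate 2 gave -0.24 or -0.14. Rescaled to the same sum it was at 0.16, as was the median of all genes.

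Stab1 and Mrc1 encode receptors of sinusoidal endothelial cells and of some macrophages. Stab1 (ENSMUSG00000042286.13, mm10 chromosome 14, 31139013 to 31168641, minus strand) encodes stabilin, a class H receptor, and was at 7.35 and 8.48 FPKM in control replicates 1 and 2 and at 7.10 and 13.0 FPKM in 7KC replicates 1 and 2. The lowest and the highest value were both in the 7KC group, and the means were 7.92 ± 0.799 and 10.1 ± 4.19 FPKM (SD, n = 2). The log2 change was 0.27 (SE 0.28, 95% interval -0.45 to 0.99, limma adjusted p 0.653), and leaving out 7KC replicate 2, control replicate 1 or 7KC replicate 1 gave -0.14, 0.17 or 0.69.

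Mrc1 (ENSMUSG00000026712.3, mm10 chromosome 2, 14229392 to 14332057, plus strand) encodes the mannose receptor. It was at 10.1 and 14.6 FPKM in control replicates 1 and 2 and at 9.21 and 17.2 FPKM in 7KC replicates 1 and 2. Again the 7KC libraries lay on both sides of the control libraries, and the means were 12.4 ± 3.23 and 13.2 ± 5.68 FPKM (SD, n = 2). The log2 change was 0.05 (SE 0.33, 95% interval -0.78 to 0.89, limma adjusted p 0.949), and leaving out 7KC replicate 2 or control replicate 1 turned it to -0.38 or -0.21. It was 0.49 without 7KC replicate 1 and 0.31 without control replicate 2. In the endothelial marker list 0 of 11 genes passed and 10 had overlapping libraries, whereas 52.5% of all tested genes had libraries that did not overlap. The summed levels of the list were 187 and 227 FPKM in the control group, against 181 and 264 FPKM with 7KC. Without 7KC replicate 2, 9 of the 11 were lower and 1 higher without overlap, beside 37.8% and 33.5% of all genes tested then. Without 7KC replicate 1, 0 were lower and 7 higher, beside 41.9% and 36.8%. The median log2 change of the list was -0.30 without 7KC replicate 2 and 0.26 without 7KC replicate 1. Clec4g, its most abundant gene, was at 51.6 to 71.6 FPKM.

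**Figure D2:**
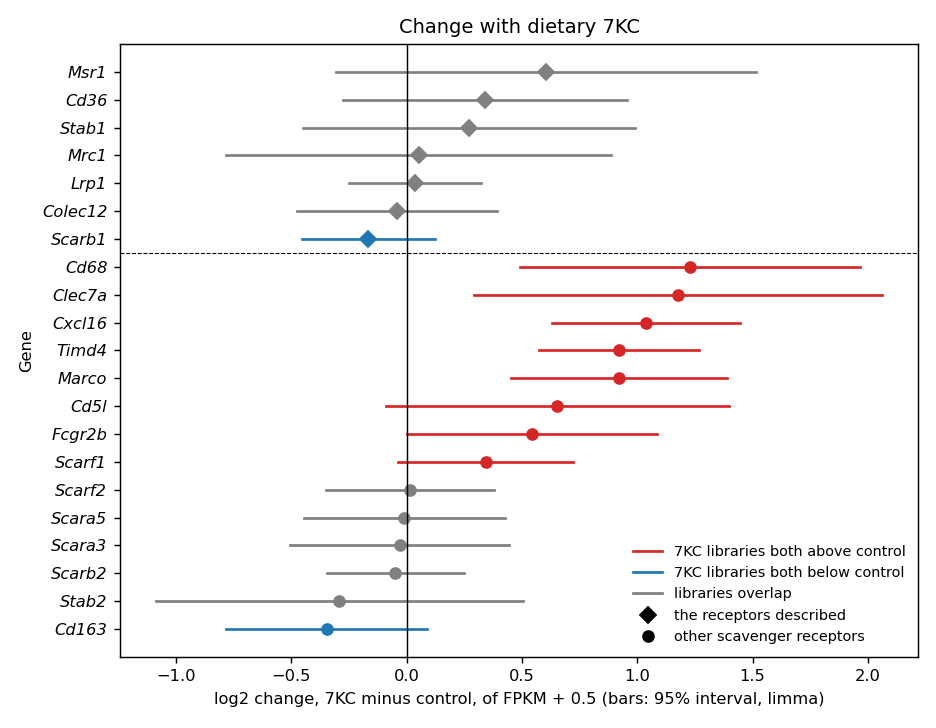
Points are log2 changes (7KC minus control, on FPKM + 0.5) and bars are 95% intervals from limma, for the 7 tested receptors (diamonds, above the dashed line) and for 14 other tested scavenger receptors (circles). Colours show whether both 7KC libraries were above (red) or below (blue) both control libraries or overlapped with them (grey). All 7 intervals above the line include 0, and those of Cd68, Clec7a, Cxcl16, Timd4, Marco and Fcgr2b below it do not.

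Olr1 (ENSMUSG00000030162.14, mm10 chromosome 6, 129485244 to 129507165, minus strand) encodes LOX-1, a lectin-like receptor for oxidized LDL. It was at 0.191 and 0.0526 FPKM in control replicates 1 and 2 and at 0.486 and 0.606 FPKM in 7KC replicates 1 and 2. The means were 0.122 ± 0.0978 and 0.546 ± 0.0848 FPKM (SD, n = 2). Both 7KC libraries were above both control libraries, as in 24.8% of 16858 genes without a filter. With the length of its longest coding transcript these levels stood for about 11 and 2 reads in the control libraries and 22 and 28 reads in the 7KC libraries. The sums of 13 and 50 reads, taken over estimated depths of 30750000 and 27300000 reads, gave a ratio of 4.33 (95% exact conditional binomial interval 2.32 to 8.69). This interval covers counting error and leaves out the spread between samples, and control replicate 2 was under 3 reads. When genes were tested without a filter the log2 change of Olr1 was 0.76 (SE 0.15), which understates a change at this level, with a limma unadjusted p of 0.00605 and an adjusted p of 0.175.

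The 2 libraries of the 7KC group differed for several receptors. From 7KC replicate 1 to the other library the level differed 1.99-fold for Msr1, 1.87-fold for Mrc1, 1.83-fold for Stab1 and 1.57-fold for Cd36. These 4 of 7 tested receptors differed at least 1.5-fold, a limit set after the values were seen, as did 10.3% of all tested genes. In the control group 1 of 7, Msr1 with 1.54-fold, differed that much, and 12.5% of all tested genes did. The summed FPKM of all genes was 557138 in 7KC replicate 2 and 619828 to 685028 in the other libraries. Without 7KC replicate 2 none of the 7 receptors was higher than both control libraries and 3, Scarb1, Stab1 and Mrc1, were lower, beside 33.5% higher and 37.8% lower among all genes tested then. Without 7KC replicate 1, 5 were higher and 1 was lower, beside 36.8% and 41.9%.

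Levels of 2 receptors within the same library can be set against each other without regard to how libraries are scaled. Of the 21 pairs of tested receptors, 5 had ratios that did not overlap between groups, against 52.3% of all pairs of tested genes. Mrc1 stood to Msr1 as 1.75 and 1.65 in the control libraries and as 1.17 and 1.10 in the 7KC libraries. The ratio of Colec12 to Msr1 was 2.71 and 2.34 against 2.06 and 1.20, and that of Scarb1 to Lrp1 was 2.53 and 2.71 against 2.45 and 2.11. Mrc1 to Stab1 went from 1.37 and 1.73 to 1.30 and 1.32. Msr1 to Stab1 was the pair with the higher ratio in the 7KC group, 1.11 and 1.20 against 0.783 and 1.04.

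The receptors were also described by the marker list they followed most closely across libraries. For each gene the log2 level relative to the mean of a list was taken in every library, and the range of this value over the 4 libraries was compared between 5 lists. Mrc1, Colec12 and Stab1 had their smallest range with the sinusoidal endothelial list, at 0.34, 0.35 and 0.50. Msr1 and Cd36 had theirs with the Kupffer cell list, at 0.55 and 0.48, although for Stab1 that list gave 0.56, close to the endothelial value. Scarb1 and Lrp1 had theirs with the stellate cell list, at 0.41 and 0.15. The summed level of that list was 177 to 221 FPKM, and of its 9 genes 0 passed the threshold. Without overlap 1 was higher and 4 were lower, beside 25.1% and 27.4% of all tested genes. These ranges are descriptions over 4 libraries and do not show which cells made the RNA. Relative to the Kupffer cell list 6 of 7 receptors were lower in both 7KC libraries, as were 76.3% of all tested genes, and 0 were higher, as were 4.5%. Relative to the list for monocytes and recruited macrophages 6 were lower as well, as were 92.7% of all tested genes, and 0 were higher, as were 0.35%. Relative to the endothelial list Cd36, Msr1 and Stab1 were higher in both, as were 15.7% of all tested genes, and 0 were lower, as were 3.81%. Relative to the stellate cell list Cd36 was higher in both, as were 23.3% of all tested genes, and 0 were lower, as were 11.5%.

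**Figure D3:**
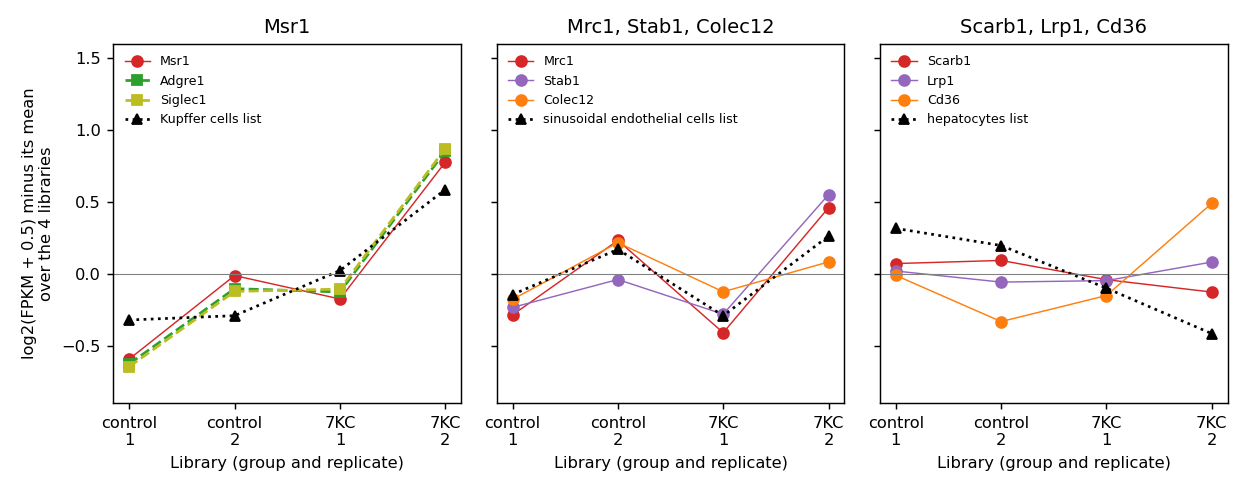
Each panel shows log2(FPKM + 0.5) minus its mean over the 4 libraries for receptor genes (circles), for the closest tested genes of Msr1 (squares) and for the mean of a marker list (black triangles). Lines join the libraries as a guide to the eye. Msr1 lies with Adgre1 and Siglec1. Mrc1, Stab1, Colec12 and Msr1 are higher in replicate 2 than in replicate 1 of each group. So are the means of the Kupffer cell and endothelial lists. Scarb1 and Lrp1 stay near 0 while the hepatocyte list is lower in the 7KC libraries.

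**Figure D4:**
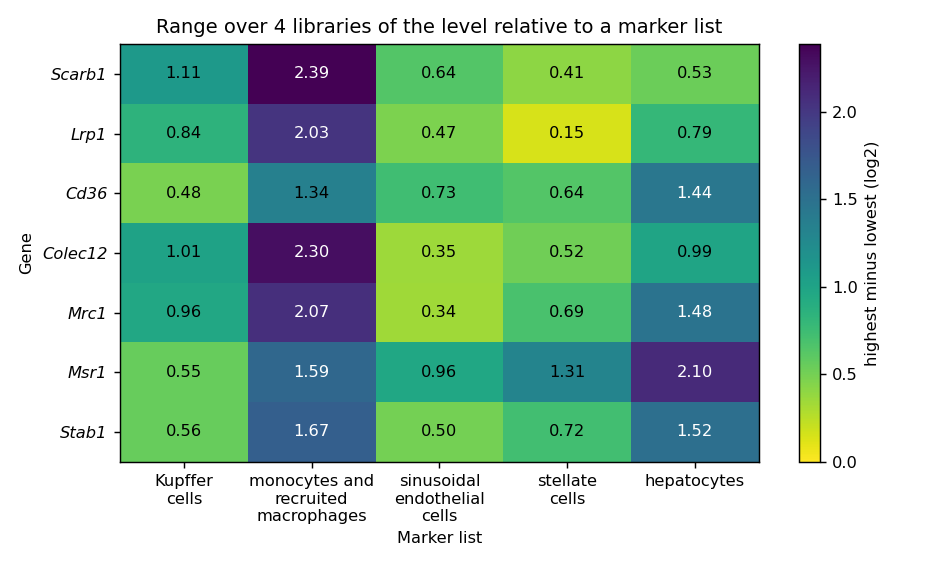
Cells give the range over the 4 libraries, highest minus lowest, of the log2 level of a receptor gene (rows) relative to the mean log2 level of a marker list (columns). Lighter cells mean a closer match, such as 0.34 for Mrc1 with the sinusoidal endothelial list against 2.07 with the list for monocytes and recruited macrophages.

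For the other receptors the closest tested genes were as follows. Cd36 was closest to the matrix genes Col5a1 and Sparc, at distances of 0.02 and 0.03 on the log2 scale. Sparc was at 52.6 and 41.5 FPKM in the control group, against 49.4 and 74.3 FPKM with 7KC. Mrc1 was closest to Fgf21, at a distance of 0.02, and to the endothelial adhesion receptor gene Adgrl4, at 0.07. Fgf21 was at 0.553 and 0.980 FPKM against 0.494 and 1.28 FPKM, near the filter of 0.5 FPKM. At such levels the 0.5 FPKM added before the log narrows a profile. Adgrl4 had 3.82 and 5.74 FPKM against 3.65 and 6.17 FPKM. Stab1 was closest to Eva1b and Cidec, Colec12 to Elac1 and Tenm3, Scarb1 to Lrif1 and Becn1, and Lrp1 to Rtcb and BC030336, at distances of up to 0.05. With 4 libraries many genes have similar profiles. For Scarb1, 4811 tested genes were closer than Lrp1, its nearest other receptor.

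Scavenger receptors outside the 8 were examined from a list of 17, of which 14 were tested. None passed the threshold. Both 7KC libraries were above both control libraries in 8 of the 14 and below them in 1, beside 25.1% and 27.4% of all tested genes, and the median log2 change was 0.44. Of the 17 genes, 3 are also in the Kupffer cell list and 2 in the endothelial list. Cxcl16, a membrane-bound chemokine that binds oxidized LDL, was at 14.2 and 12.3 FPKM in the control group, against 24.5 and 31.3 FPKM with 7KC, a change of 1.04 on the log2 scale (SE 0.16, limma adjusted p 0.0619). Timd4, a receptor for phosphatidylserine on Kupffer cells, had a change of 0.92 (SE 0.14, adjusted p 0.0606). Marco, a class A receptor like Msr1, had 82.4 and 63.4 FPKM against 123 and 153 FPKM and a change of 0.92 (SE 0.18, adjusted p 0.0966). Cd68, the macrophage class D receptor, had 36.4 and 26.9 FPKM against 56.5 and 96.9 FPKM and a change of 1.23 (SE 0.29, adjusted p 0.128). Cxcl16, Timd4 and Marco had adjusted p-values of 0.0371, 0.0395 and 0.0475 at their lowest among the alternatives, and of 0.322, 0.322 and 0.450 at their highest. The hemoglobin receptor gene Cd163 was lower in both 7KC libraries, at 2.72 and 2.89 FPKM against 3.19 and 4.28 FPKM. Stab2, the close relative of Stab1, was at 6.76 and 12.3 FPKM against 6.16 and 8.85 FPKM, and its libraries overlapped. Cd163, Stab2, Clec7a and Fcgr2b were named after their values were seen, as were Pdzk1, Vsig4 and Clec4f. Without 7KC replicate 2, 8 of the 14 genes were higher in the remaining 7KC library than in both control libraries and 5 were lower. Among all genes tested then, 33.5% were higher and 37.8% lower, and the median log2 change of the list was 0.22. With equal sums of FPKM 3 of the 14 passed the threshold and 9 were higher without overlap, beside 3.29% and 46.5% of all tested genes.

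Receptors for native lipoproteins and their regulators formed a list of 18, of which 16 were tested and none passed. Its libraries were higher without overlap in 5 and lower in 2, beside 25.1% and 27.4% of all tested genes, and the median log2 change was 0.03. The smallest p was that of Sorl1, a sorting receptor, at 1.26 and 0.822 FPKM against 2.34 and 3.52 FPKM, a change of 1.15 on the log2 scale (SE 0.25, limma adjusted p 0.108). Lpl, lipoprotein lipase, had a change of 0.58 (SE 0.22, adjusted p 0.264) and Lipc, hepatic lipase, a change of -0.38 (SE 0.17, adjusted p 0.319).

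Of 24 genes whose proteins bind or act with these receptors, 21 were tested and 1 passed. Tlr2, a toll-like receptor that signals together with Cd36, was at 5.11 and 4.62 FPKM in control replicates 1 and 2 and at 12.9 and 12.1 FPKM in 7KC replicates 1 and 2. It rose by 1.28 on the log2 scale (SE 0.12, limma adjusted p 0.0313). Over the alternatives its adjusted p ranged from 0.0128 to 0.213 and its log2 change from 1.21 to 1.48, and it did not pass when control replicate 2 or either 7KC library was left out. Src and Fyn, kinases that act downstream of Cd36, had log2 changes of 1.38 (SE 0.21, adjusted p 0.0619) and 0.61 (SE 0.18, adjusted p 0.188). Of the 21 genes 9 were higher without overlap and 5 lower, beside 25.1% and 27.4% of all tested genes, of which 0.504% passed. With equal sums 12 were higher, 2 were lower and 2 passed, where 46.5%, 7.86% and 3.29% of all tested genes did.

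Factors known to act on the genes of these receptors were all tested, and of the 19 none passed, with 7 higher and 7 lower without overlap, beside 25.1% and 27.4% of all tested genes. With equal sums 12 were higher, 2 were lower and 2 passed, beside 46.5%, 7.86% and 3.29% of all tested genes. Spi1, which encodes PU.1, a factor of macrophage genes that acts on Msr1, was at 24.1 and 14.7 FPKM in the control group, against 41.2 and 45.1 FPKM with 7KC, a change of 1.17 on the log2 scale (SE 0.24, limma adjusted p 0.0987). Nfkb1 had a change of 0.51 (SE 0.11, adjusted p 0.104) and Srebf1, a regulator of lipid synthesis, a change of -0.69 (SE 0.17, adjusted p 0.137). Over the alternatives the adjusted p of Spi1, Nfkb1 and Srebf1 was 0.0175, 0.0488 and 0.0531 at the lowest and 0.457, 0.452 and 0.533 at the highest. Pparg, a known activator of Cd36, was at 2.42 and 2.83 FPKM against 3.72 and 2.72 FPKM with overlapping libraries, and Nr1h3, which encodes the oxysterol receptor LXR alpha, was at 58.5 and 62.7 FPKM against 62.1 and 57.5 FPKM. These 2 genes were named for their roles after their values were seen.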

How the data were processed

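Per the labels, stranded mRNA libraries of liver were sequenced. The authors mapped single-end reads to mm10 and deposited 1 FPKM value per gene symbol and library. The submitters' processing notes name TopHat2 2.1.1, Bowtie2 2.2.8, SAMtools 0.1.18 and Cuffdiff 2.2.1, whereas the methods of the study name Cufflinks and other versions. The gene annotation and the settings for multi-mapped reads were not given in the sources used here.

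Values were compared as log2(FPKM + 0.5) over the 12299 genes whose mean reached 0.5 FPKM, with limma 3.58.1 in R 4.3.3 (group as the only term, prior variance following mean expression, Benjamini-Hochberg adjustment over all tested genes). Log2 changes on this scale understate those of low genes. For a single gene an exact permutation test of 2 libraries against 2 cannot go below p = 0.333. Coordinates are from GENCODE M21, on the same build. Depth was estimated from low values of single-transcript genes with 200 bases taken off each length: 75.2% to 76.0% of values under 6 reads lay within 0.1 of a whole read. The gene Cavin1 was matched through its older symbol Ptrf.

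The receptors and gene lists were chosen with earlier results of these data known. The rule for named genes took the 8 receptors, genes past the threshold, the 4 smallest p of the other scavenger receptors and the 3 smallest of each other list, the most abundant gene of each marker list, and the genes closest in profile. Not all genes the rule took in the marker lists are written out, and genes named outside it are said to be so where they appear. Alternatives were other pseudocounts, filters, scalings and priors, the replicate number as a block, and leaving out each library. The result of 1 gene of the list of receptors for native lipoproteins is not reported here.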

Additional observations from a re-analysis of the deposited data

How the results depend on the processing

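None of the 7 tested receptors passed the threshold under any alternative. Of 107 values of single receptors under alternatives, 9 changed sign. Another 96 kept their direction and their side of the threshold or moved by less than the spread. Other filters, priors or the block leave the log2 change itself as it was, so those values could not change sign. A value that kept its direction could still shrink, as for Cd36 from 0.34 to 0.02 without 7KC replicate 2. With equal sums of FPKM, Scarb1 turned to 0.040 and Colec12 to 0.16 while the all-gene median went from -0.03 to 0.16. On that scale 2 receptors were higher without overlap and 0 lower, beside 46.5% and 7.86% of all tested genes. There 405 genes passed instead of 62. Under quantile normalization 0 receptors were lower without overlap, beside 34.3% of all tested genes. Leaving out 1 library moved the log2 change of Lrp1 between -0.028 and 0.10, of Stab1 between -0.14 and 0.69, of Colec12 between -0.24 and 0.16 and of Mrc1 between -0.38 and 0.49. It moved the number of receptors higher without overlap between 0 and 5 and lower between 1 and 3, beside 33.5% to 37.6% and 37.8% to 41.9% of all genes tested, and the number of genes past the threshold between 4 and 458. Without 7KC replicate 1, Cd36, Msr1 and Stab1 had log2 changes of 0.66, 1.08 and 0.69. In fits without 1 library, a group of 1 library is assumed to vary like the other group. Olr1 had a log2 change of 1.61 with a pseudocount of 0.1 FPKM and of 0.46 with 1 FPKM, as the offset is large beside its level.

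Against 62 genes past the threshold, a pseudocount of 1 FPKM gave 115, no filter 1 (2634 with an unadjusted p under 0.05), the median ratio 98 and 1 prior variance 40. The replicate numbers share only a number: with the replicate block 0 genes passed in limma (1851 with an unadjusted p under 0.05) and no receptor's call changed, while Tlr2 no longer passed, nor did it with no filter or 1 prior variance. Libraries of the same number deviated from their group means with a correlation of -0.14 across genes, and with the crossed pairing, chosen after seeing the data, 588 genes passed. The causes were not tested. Msr1 rests on 335 to 735 reads per library, whereas Olr1 rests on 2 to 28 reads.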
